A study of Mus musculus with 12 samples.

Results

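Desmosome genes were followed through the keratinocytes of mouse hind paw epidermis. The 10 genes were taken by symbol from the 32285 genes of the feature tables: the desmogleins Dsg1a, Dsg1b, Dsg2 and Dsg3, the desmocollins Dsc1, Dsc2 and Dsc3, the plaque genes Dsp and Pkp1, and Perp. They were taken as a gene family and not by their values, although earlier results of these data were known when they were chosen. The study asked if Langerhans cells of the epidermis play a part in neuropathic pain, in mice fed a high-fat diet to model painful diabetic neuropathy. Its 12 single-cell libraries came from wild-type C57BL/6J mice, with 3 mice in each of 4 groups: male regular diet (RD), male high-fat diet (HFD), female RD and female HFD. RD held 11% fat and HFD 42% fat, and each was fed for 10 weeks from 6 to 8 weeks of age, so that all mice were 16 to 18 weeks old at the end. No mouse carried a transgene or received a drug. The tissue was glabrous hind paw skin, from which the epidermis was peeled after Dispase and dissociated with TrypLE.

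Desmosomes are the adhesive junctions that tie the keratin networks of neighbouring keratinocytes together. Desmogleins and desmocollins are cadherins that meet their partners between the cells. Inside the cell, plakoglobin and the plakophilins link the cadherin tails to desmoplakin, and desmoplakin binds the keratin filaments. Keratinocytes of stratified epidermis are known to exchange cadherin isoforms as they leave the basal layer, with DSG3 and DSC3 lower in the tissue and DSG1 and DSC1 higher. Autoantibodies to DSG3 and DSG1 cause pemphigus, and the loss of Perp, a tetraspan membrane protein, weakens desmosomes in mice.

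Dsp encodes desmoplakin, the linker to keratin that every desmosome contains. It is the plaque gene whose promoter was held in the RefSeq promoter table used here, and its sequence is shown because Dsp was abundant in every living layer. The gene lies on the plus strand at chr13:38151294-38198577 in GRCm38. The 250 bases before its start, at chr13:38151044-38151293 in GRCm38.p6, are printed 5′ to 3′ with GC boxes (GGGCGG, or CCGCCC on the other strand) in capitals.
Dsp promoter: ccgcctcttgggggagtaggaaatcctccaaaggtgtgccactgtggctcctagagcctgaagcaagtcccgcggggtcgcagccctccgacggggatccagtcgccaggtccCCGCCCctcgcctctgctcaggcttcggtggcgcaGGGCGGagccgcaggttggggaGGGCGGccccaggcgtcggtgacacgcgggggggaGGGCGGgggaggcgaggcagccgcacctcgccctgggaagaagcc
The window had a GC content of 72.4%, against a median of 52.4% over all promoters in the table. It held 3 GC boxes on the printed strand and 1 on the other, a motif found on either strand in 32.7% of the 32851 promoters of this length. TATAAA was absent from both strands of the window and is held by 12.4% of promoters, and CCAAT was absent and is held by 33.8%. CACCC, the Krueppel-like factor core, was also absent (52.0% of promoters hold it), as were TGANTCA, the AP-1 motif (6.75%), and AACCGGTT, the Grainyhead-like motif (0.116%). These matches describe the letters of the window only.

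Each library held 7370 to 16254 barcodes and 134449247 to 194673581 UMIs (unique molecular identifiers, each a counted transcript). After the filters on genes and mitochondrial reads, 62147 male and 64228 female cells remained, and males and females were clustered apart with the desmosome genes left out of the clustering. The file headers name different versions of the counting software for males and females, so sex and software cannot be told apart, and no level was compared between sexes. Any pair of libraries shared between 12 and 59 barcodes, at most 0.583% of the smaller library. The 5 keratinocyte classes followed were basal (15813 male and 16365 female cells), cycling (7928 and 11179), Krt9/Il34 (12207 and 15924), spinous (15080 and 11525) and terminal (3230 and 1283). A migratory keratinocyte class (2988 and 5184) was also named and is not described here. The unnamed clusters made up 5.63% to 6.15% of the cells in male RD mice against 3.21% to 4.98% in male HFD mice, and at most 0.606% in any female mouse. They entered no class, and their part in the diet results was not tested.

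Markers of basal and spinous cells were as the names require, whereas those of the class expected to be volar Krt9 cells were not in females. Krt14 and Krt10 were among the markers that named the basal and spinous classes. Their levels there describe these classes and are no separate check of the names. Krt14 averaged 17444 CPM (UMIs of a gene scaled to the total UMIs of the class in each mouse) in male basal cells and 278 in male spinous cells, and Krt10 averaged 2689 and 41090. In females Krt14 was 13675 and 318 CPM, and Krt10 was 670 and 29808 CPM. Terminal cells held more Krt14 than spinous cells, at 1476 CPM in males and 1280 CPM in females. The suprabasal class led by Krt9, Chchd10, Il34 and Mycl in males held Krt9 at 369 CPM, above the 213 CPM of the spinous class. In females its leading genes were Mettl7a1, Il34 and Thbd, and its Krt9 level of 596 CPM was below the 722 CPM of the spinous class. Krt9 therefore did not set this class apart from spinous cells in females, and it is called Krt9/Il34 after Krt9, a leading gene in males only, and Il34, a leading gene in both sexes. By Krt10 it lay between basal and spinous cells, at 17496 CPM in males and 12335 CPM in females.

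The 7 cadherin genes lie in a single cluster on chromosome 18 in GRCm38, where Dsc3 (19960930 to 20002351), Dsc2 (20030633 to 20059554) and Dsc1 (20084184 to 20114871) are on the minus strand. Dsg1a (20310811 to 20343350), Dsg1b (20376729 to 20410196), Dsg3 (20510274 to 20547459) and Dsg2 (20558074 to 20604521) are on the plus strand. Perp is at chr10:18845020-18857073 and Pkp1 at chr1:135871395-135919207. Dsg1a and Dsg1b are near-identical copies in part. Of the 451 windows of 50 bases in the last 500 bases of each transcript, where 3′ reads fall, 0 windows of Dsg1a occurred in Dsg1b and 29 windows of Dsg1b (6.43%) occurred in Dsg1a. The split of counts between both genes is therefore less certain for Dsg1b, and their sum is called Dsg1 below.

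Dsg1a and Dsg1b, the desmogleins of the upper epidermis, were low in basal cells and highest in spinous cells. In basal cells Dsg1a ranged from 105 to 142 CPM over the 6 male mice (median 123) and from 46.6 to 68.5 CPM over the 6 female mice (median 59.6). In spinous cells it ranged from 1210 to 1408 CPM in males (median 1317) and from 1129 to 1333 CPM in females (median 1255). No basal value came near a spinous value. The mean within-mouse ratio of spinous to basal was 10.8-fold in males (log2 3.43 ± 0.17, SD, n = 6) and 21.3-fold in females (4.42 ± 0.22). Dsg1b followed, from 17.1 to 171 CPM in males (10.0-fold) and from 19.6 to 264 CPM in females (13.6-fold). Krt9/Il34 cells stood between, with Dsg1a at 506 ± 23.5 CPM in males and 423 ± 27.6 CPM in females. Male cycling cells (116 CPM) overlapped male basal cells, whereas in females cycling cells (100 CPM) lay above basal cells in 6 of 6 mice without overlap. In terminal cells Dsg1a was lower again, at 247 ± 42.2 CPM in males and 124 ± 38.5 CPM in females, levels that are compared with background below. Because classes are clusters of the same cells, differences between classes are given as descriptions without a test.

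Dsg3, the desmoglein targeted in pemphigus vulgaris, ran the other way. Basal Dsg3 was between 115 and 150 CPM in males (median 144) and between 242 and 323 CPM in females (median 288). In spinous cells it was between 11.4 and 17.4 CPM in males (median 16.0) and between 14.9 and 21.8 CPM in females (median 17.2). Basal cells were 9.03-fold above spinous cells in males and 15.8-fold in females, in 6 of 6 mice of each sex and without overlap. Spinous Dsg3 was below its level in Langerhans cells (26.1 and 35.1 CPM), which should lack it, but above the 4.51 and 2.93 CPM that Langerhans cells held without the highest doublet scores, so the size of these folds depends on how background is set. The ranges of basal and cycling cells overlapped in both sexes, although basal cells were higher in 6 of 6 mice of each sex. Those of spinous and terminal cells overlapped too, with spinous cells higher in 5 of 6 male mice and terminal cells higher in 5 of 6 female mice. Krt9/Il34 cells held intermediate levels of 62.9 ± 8.57 CPM in males and 115 CPM in females.

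Dsg2, a desmoglein best known from heart and simple epithelia, was a basal gene here. Its level was 38.2 ± 2.86 CPM in male basal cells and 45.4 CPM in female basal cells, and cycling cells overlapped this (33.3 and 38.1 CPM). It dropped to 5.10 CPM in male and 7.98 CPM in female Krt9/Il34 cells and to 0.590 and 1.53 CPM in spinous cells. That spinous level rests on 15 to 47 UMIs per mouse in males. The basal to spinous ratio of 57.0-fold in males and 28.8-fold in females was the widest fall of the 10 genes. Ratios between classes were taken after adding 0.1 CPM, and spinous Dsg2 was below its Langerhans level of 6.73 CPM in males and 5.52 CPM in females (2.09 and 2.37 CPM without the highest doublet scores), so the size of this ratio is uncertain. An antisense-strand gene, Gm16090, overlaps Dsg2 exons, and whether the counting used strand is not given in the sources used here.

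The desmocollins divided in a different manner. Dsc1, the desmocollin of upper layers, ranged from 14.8 to 18.7 CPM in male basal cells (median 16.4) and from 3.26 to 4.38 CPM in female basal cells (median 3.70). In spinous cells it ranged from 392 to 526 CPM in males (median 450) and from 271 to 354 CPM in females (median 304). This was the steepest rise of the 10 genes, 27.1-fold in males (log2 4.76 ± 0.11) and 80.5-fold in females (6.33 ± 0.19). Basal Dsc1 was below its Langerhans level of 93.7 CPM in males and 19.0 CPM in females. Without the highest doublet scores the basal level was 12.01 and 3.03 CPM against 20.1 and 2.98 CPM in Langerhans cells, so the size of this fold also depends on background. Cycling and Krt9/Il34 cells stood between basal and spinous cells in Dsc1, at 23.1 and 13.1 CPM in cycling cells and 106 and 52.2 CPM in Krt9/Il34 cells, in males and females.

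Dsc3, the basal-layer desmocollin of most accounts, did not run down as Dsg3 did when the spinous class was taken whole. It was between 364 and 418 CPM in male basal cells (median 386) and between 421 and 460 CPM in male spinous cells (median 434). In females the basal range was 450 to 550 CPM (median 518) and the spinous range 554 to 620 CPM (median 598). The spinous class was therefore slightly above the basal class, 1.12-fold in males and 1.16-fold in females, in 6 of 6 mice of each sex. In spinous II cells, one of its clusters described below, Dsc3 was under the basal level in CPM. It was at 252 CPM in males (222 to 280 CPM, below every basal value) and 436 CPM in females (401 to 478 CPM, overlapping the basal range). Median UMIs per cell were 16160 in the whole male spinous class and 7275 in male basal cells, and 16724 and 9022 in females. A lower CPM in spinous II cells therefore does not show fewer Dsc3 UMIs per cell. The highest Dsc3 level was in Krt9/Il34 cells, 561 ± 17.1 CPM in males and 758 CPM in females. Dsc2, the desmocollin of many simple epithelia, stayed below 10 CPM on average in every class, with 8.14 and 9.06 CPM in basal cells, 1.90 and 4.06 CPM in spinous cells and 0.660 and 1.71 CPM in terminal cells of males and females. In males Krt9/Il34 cells (3.49 CPM) lay above spinous cells in 6 of 6 mice without overlap, whereas in females these classes overlapped. Spinous and terminal cells overlapped in both sexes, and all these levels rest on few UMIs.

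**Figure D1:**
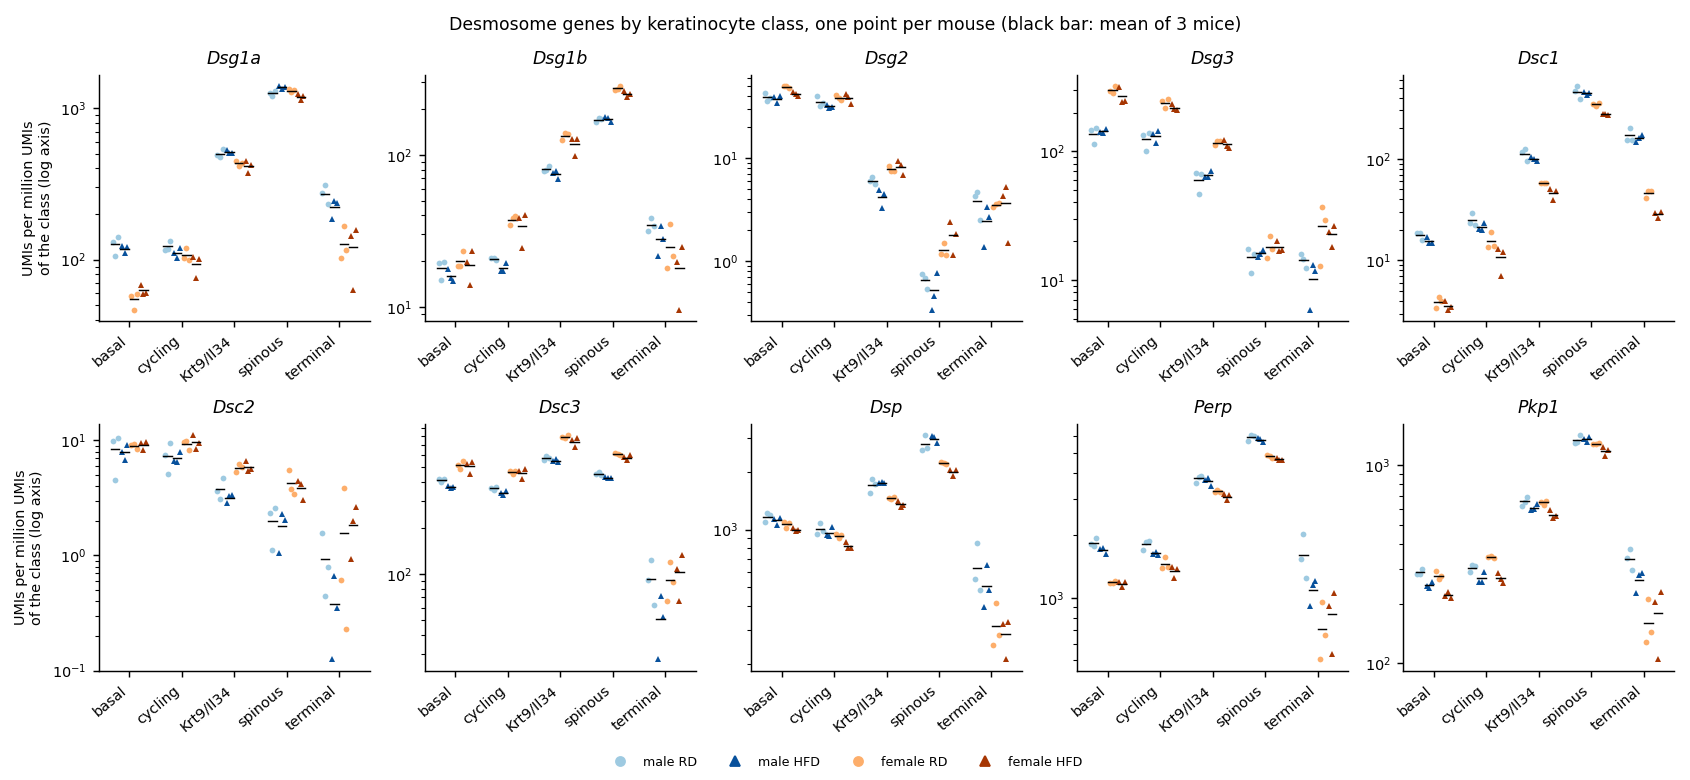
Level of each desmosome gene (CPM, log axis) in 5 keratinocyte classes, with 1 point per mouse, colour and shape for sex and diet, and a black bar at the mean of 3 mice. Dsg1a, Dsg1b, Dsc1, Dsp, Perp and Pkp1 peak in spinous cells, Dsc3 peaks in Krt9/Il34 cells, and Dsg2 and Dsg3 are highest in basal cells.

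The isoform switch was expressed as shares of UMIs. A 3′ UMI is meant to count a transcript once whatever its length, but whether intron reads entered the counts is not given. An effect of gene length on the shares was not tested. The Dsg1 share is the percentage of Dsg1a and Dsg1b UMIs in the UMIs of the 4 desmogleins. It was 43.8 ± 1.63% in male basal cells (SD, n = 6), 45.7% in cycling, 89.6% in Krt9/Il34 and 98.9% in spinous cells. In females it was 19.3 ± 2.10%, 33.8%, 81.7% and 98.7%. The desmoglein switch was thus nearly complete by the spinous class and most of it lay between basal or cycling cells and Krt9/Il34 cells. In basal cells the rest was mainly Dsg3 (44.1% in males, 69.6% in females), with Dsg2 at 12.1% and 11.2%. Within Dsg1 the Dsg1a part stayed between 85.7% and 88.7% over the 5 male classes and between 73.7% and 85.5% over the 5 female classes.

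In shares, the desmocollin switch was behind that of the desmogleins in Krt9/Il34 cells and was not complete in the spinous class. Dsg1a and Dsc1 were both higher in Krt9/Il34 than in basal cells and highest in spinous cells. The shares therefore do not show that Dsc1 rose later than Dsg1a. They also follow Dsc3, which stayed high in the spinous class taken whole, and Dsg3, which fell. The Dsc1 share, the percentage of Dsc1 in the UMIs of the 3 desmocollins, was 4.00% in male basal cells and 0.718% in female basal cells. It was 6.06% and 2.70% in cycling cells, 15.8% and 6.37% in Krt9/Il34 cells and 50.6 ± 2.08% and 34.1 ± 2.22% in spinous cells of males and females. In Krt9/Il34 cells, where Dsg1 made up 81.7% to 89.6% of desmogleins, Dsc3 made up 83.7% of desmocollins in males and 92.9% in females. Whether this class is a step between basal and spinous cells was not tested.

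**Figure D2:**
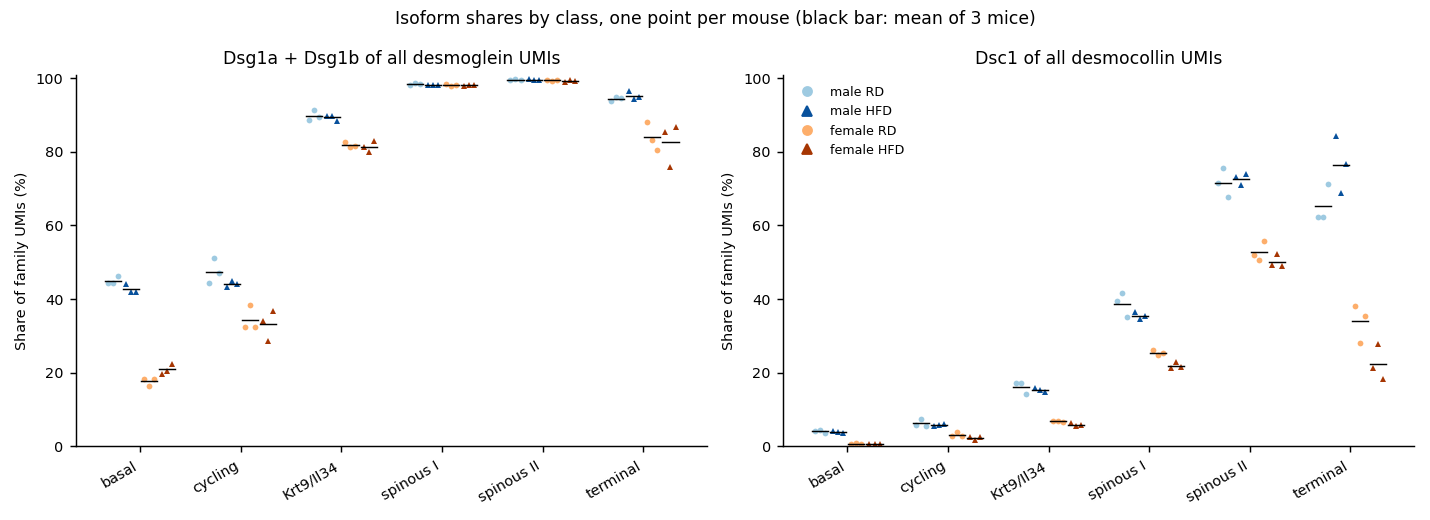
Share of Dsg1 in desmoglein UMIs and of Dsc1 in desmocollin UMIs (percent) by keratinocyte class, with the spinous class split into its clusters I and II, 1 point per mouse, colour and shape for sex and diet, and a black bar at the mean of 3 mice. The Dsg1 share is above 98% on average in both spinous clusters of both sexes, whereas the Dsc1 share goes from 37.1% to 72.2% between them in males and from 23.6% to 51.5% in females.

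The spinous class consisted of a pair of clusters. Spinous I was led by Bco1, Gsta2 and Alox12e in males and by Endou and Pla2g4f in females, and spinous II by Serpinb3a in males and by Dnase1l3 and Serpinb3a in females. Spinous II held more Krt10 (50109 against 35655 CPM in males, 37074 against 25507 CPM in females). Dsc1 was 2.04-fold higher in spinous II than in spinous I in males (662 against 326 CPM) and 2.20-fold higher in females (470 against 214 CPM), in 6 of 6 mice of each sex. Dsc3 moved the other way, 252 against 548 CPM in males and 436 against 685 CPM in females. The Dsc1 share accordingly went from 37.1% in spinous I to 72.2% in spinous II in males and from 23.6% to 51.5% in females, without overlap. Dsg3 fell further, from 20.7 to 7.11 CPM in males and from 21.7 to 11.7 CPM in females, and Dsg1a went from 1115 to 1650 CPM and from 1009 to 1647 CPM.

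The same order was seen without clusters. Cells of each mouse were cut into 10 bins of equal cell number by the share of Krt1 and Krt10 in the UMIs of Krt1, Krt10, Krt5 and Krt14, using cells with at least 20 such UMIs. In bins 1, 5, 8, 9 and 10 the Dsg1 share was 27.6%, 73.4%, 98.0%, 99.1% and 98.8% in males and 18.2%, 36.4%, 95.1%, 98.5% and 97.4% in females. The Dsc1 share in these bins was 1.44%, 14.9%, 40.6%, 53.7% and 49.9% in males and 0.562%, 2.15%, 19.5%, 33.2% and 25.3% in females. Both shares were highest in bin 9 and lower in bin 10. The median Krt1 and Krt10 share of cells in these bins averaged 99.78% and 99.96% in males and 99.88% and 100% in females. Bins 9 and 10 were thus hardly apart on this axis, and the step between them is not read as a further stage. Dsg3 went from 150 CPM in male bin 1 to 22.5 CPM in bin 8, 14.04 CPM in bin 9 and 16.6 CPM in bin 10, and Dsc1 from 4.81 to 334, 491 and 422 CPM. Dsc3 changed far less, from 316 CPM in male bin 1 to 483 CPM in bin 8 and 420 CPM in bin 10. Desmoglein shares were near their end while the desmocollin shares were still moving.

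**Figure D3:**
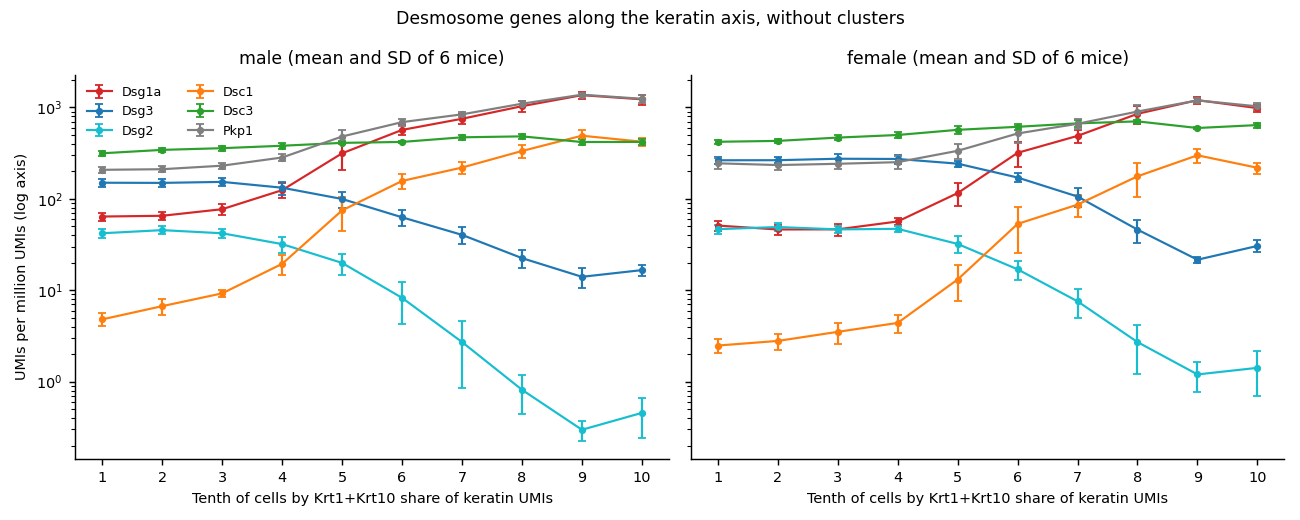
Level of Dsg1a, Dsg2, Dsg3, Dsc1, Dsc3 and Pkp1 (CPM, log axis) over 10 bins of the cells of each mouse, ordered by the Krt1 and Krt10 share of keratin UMIs, with points at the mean and bars for the SD of 6 mice, males and females apart. From bin 1 to bin 9 Dsg3 goes down from 150 to 14.04 CPM in males while Dsc1 goes up from 4.81 to 491 CPM. Dsc3 stays between 316 and 483 CPM in males. Bin 10, which is hardly apart from bin 9 in keratin share, has more Dsg3 and less Dsc1 than bin 9.

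Single cells were then asked whether they held both isoforms. Each cell was thinned to 5000 UMIs, which kept 12446 of 15813 male and 15200 of 16365 female basal cells. Dsg1 and Dsg3 UMIs occurred in the same cell in 19.6% of male and 18.5% of female basal cells, in 22.2 ± 3.38% and 27.5 ± 1.68% of Krt9/Il34 cells and in 6.92% and 6.45% of spinous cells. Langerhans cells, which should lack both genes, gave 6.86 ± 4.36% in males and 2.46% in females, over the 534 of 1345 male and 1699 of 2120 female cells deep enough. Since 99.5% of male and 99.1% of female spinous cells held Dsg1, their value follows Dsg3 alone. Dsg3 was found in 6.96% of male and 6.58% of female spinous cells, against 13.5% and 6.52% of Langerhans cells. Dsg3 detection in spinous cells was thus below that in Langerhans cells in males and about equal to it in females. Doublets were not removed from these Langerhans cells. Co-detection itself was close to the Langerhans value in males and above it in females. Dsc1 and Dsc3 occurred together in 62.4 ± 3.43% of male and 57.6 ± 4.42% of female spinous cells, against 5.28% and 1.33% of basal cells and 14.05% and 3.12% of Langerhans cells. Most spinous cells thus held both desmocollins, whereas Dsg3 beside Dsg1 was rare in them. Without thinning, at a median of 16554 UMIs per male spinous cell and 4655 per male Langerhans cell, Dsc1 was seen in 94.8% and 10.7% and Dsc3 in 93.3% and 20.1%. For females the medians were 17086 and 6723 UMIs, and the values were 88.3% and 5.45% for Dsc1 and 92.8% and 18.0% for Dsc3.

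Background transcripts limit the low end of these levels. Langerhans cells held Dsg1a at 299 CPM in males and 109 CPM in females, above the basal level of both sexes, and Krt10, a keratinocyte gene, at 9995 and 2817 CPM. Removing the cells with the highest doublet scores lowered Dsg1a in Langerhans cells to 55.3 ± 42.5 CPM in males (12.1 to 110) and 11.3 CPM in females. Basal Dsg1a was then 102 CPM in males (82.2 to 124) and 54.1 CPM in females, so the male ranges still overlapped. The basal Dsg1 share was 38.8% in males and 18.0% in females after that removal.

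Terminal cells, which held cornified envelope genes of the Lce family at a median of 19.9% of their UMIs in males and 25.8% in females, need the same care. Their Dsg3 (12.3 and 24.5 CPM) and Dsc3 (71.3 and 96.5 CPM) were below the Langerhans levels of 26.1 and 35.1 CPM and 164 and 136 CPM. They are not told apart from background here. Median UMIs per cell were 15880 in male terminal and 4527 in male Langerhans cells, and 14678 and 6739 in females. The same background UMIs per cell give a lower CPM in deeper cells. A level below the Langerhans CPM therefore does not by itself show background. In males terminal Dsg1a (247 against 299 CPM), Dsg1b (31.4 against 40.9 CPM), Dsp (570 against 816 CPM), Perp (1347 against 1672 CPM) and Pkp1 (301 against 366 CPM) were below the Langerhans level too. In females the levels of these genes lay close to it, such as 124 against 109 CPM for Dsg1a and 302 against 310 CPM for Dsp. Female terminal cells already held more Dsg1a, Perp (770 against 627 CPM) and Pkp1 (170 against 154 CPM) on average. In males the order turned around once the highest doublet scores were removed from both classes. Terminal Dsg1a was then 190 CPM in males (125 to 253) and 61.5 CPM in females (34.5 to 106), above the Langerhans values of 55.3 CPM (12.1 to 110) and 11.3 CPM (5.90 to 30.2) without overlap. Pkp1 did not overlap either in either sex (230 against 76.0 CPM in males, 84.6 against 18.6 CPM in females). Dsp and Perp were higher on average in terminal cells of both sexes, without overlap in females and with overlap in males, and Dsg1b without overlap in males only. Terminal Dsg3 and Dsc3 still overlapped the Langerhans values in both sexes. Terminal Dsc1 was 165 CPM in males and 37.1 CPM in females, above the Langerhans levels of 93.7 and 19.0 CPM. The Dsc1 share in terminal cells was 70.9 ± 8.54% in males and 28.1 ± 7.73% in females. With a 10% mitochondrial limit and new clusters it was 83.5 ± 3.94% and 71.1 ± 5.68%. The doublet scores removed 18.9% of male and 20.7% of female terminal cells, and the share was then 85.3 ± 8.29% and 57.9 ± 14.6%. Krt14, a basal keratin, fell in the same step from 1476 to 574 CPM in males and from 1280 to 324 CPM in females, and Dsc3 from 71.3 to 32.7 CPM and from 96.5 to 25.3 CPM. Dsc1 itself was 173 CPM in males and 31.2 CPM in females without those cells. The Dsg1 share in terminal cells, 94.9% and 83.3%, was 97.0% and 89.3% without them.

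Dsp, the linker to keratin, was never low in living layers. It ranged from 1064 to 1216 CPM in male basal cells (median 1149) and from 984 to 1103 CPM in female basal cells (median 1018). Spinous levels were 2602 to 3103 CPM (median 2937) and 1913 to 2261 CPM (median 2132), which made Dsp 2.52-fold and 2.05-fold higher than in basal cells. Krt9/Il34 cells lay between at 1727 and 1409 CPM, and terminal cells were at 570 ± 163 and 302 CPM (463 and 140 CPM without the highest doublet scores). The opposite-strand gene Gm10129 overlaps an exon of Dsp.

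Pkp1, the plakophilin of suprabasal desmosomes, rose more steeply than Dsp. It ranged from 240 to 301 CPM in male basal cells (median 270) and from 215 to 291 CPM in female basal cells (median 248). In spinous cells it ranged from 1289 to 1410 CPM in males (median 1331) and from 1104 to 1294 CPM in females (median 1255), 5.01-fold and 4.96-fold above basal cells. Male terminal, cycling and basal cells overlapped with their neighbours in the order.

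Perp, the tetraspan gene, had 1627 to 1940 CPM in male basal cells (median 1753) and 1126 to 1205 CPM in female basal cells (median 1183). Spinous cells had 5619 to 6044 CPM (median 5841) and 4599 to 4876 CPM (median 4691), 3.31-fold and 4.01-fold more. From spinous II to terminal cells Perp was 4.75-fold lower in males and 6.65-fold lower in females. Without the highest doublet scores terminal Perp went from 1347 to 932 CPM in males and from 770 to 373 CPM in females, so these folds are uncertain. Against basal cells the male terminal value depended on the scale, since it was lower in CPM (1347 against 1766) but higher in UMIs per cell (23.0 against 16.4).

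The other genes of the junction were a list of 9. Jup, which encodes plakoglobin, rose from 326 CPM in basal to 1053 CPM in spinous cells in males and from 443 to 1438 CPM in females. Pkp3, a plakophilin of all layers, went from 171 to 367 CPM and from 153 to 288 CPM. Pkp4, a relative of the plakophilins, was highest in cycling cells (53.7 CPM in males, 149 CPM in females) and lowest in terminal cells. Pkp2, Dsg1c and Dsg4 stayed below 3 CPM on average in all 5 classes. The envelope-linked plakins Ppl and Evpl reached 472 and 270 CPM in male spinous II cells, and Ppl was at 563 CPM in male terminal cells and at 170 CPM in female ones. Cdsn, which encodes corneodesmosin of the cornified layer junctions, was at 6.34 and 1.44 CPM in basal cells, 203 and 224 CPM in spinous II cells and 3035 and 2489 CPM in terminal cells. Among the 5 classes Cdsn and Ppl were highest in terminal cells in both sexes, which was true of none of the 10 genes above.

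Among 14 listed regulators and proteases of the junction, Klk7 and Klk5, kallikreins that cleave corneodesmosomes, were sharply graded. Klk7 was 7.52 CPM in male spinous I, 440 CPM in spinous II and 1060 CPM in terminal cells, and Klk5 was 142, 590 and 283 CPM. Spink5, which encodes their inhibitor LEKTI, was 570, 2132 and 1432 CPM in the same order. The transcription factor gene Grhl1 went from 12.3 CPM in male basal to 126 CPM in spinous cells and from 30.6 to 191 CPM in females. Trp63, the gene of the basal regulator p63, went from 131 to 39.0 CPM and from 319 to 128 CPM.

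Genes outside the lists with the most similar course were found by Pearson's r of log2 CPM over the 60 class-by-mouse values, centred within each mouse. These values share libraries and cell classes, so no p is given. The closest were Crabp2 and Ly6g6e to Dsg1a, Cebpa and Krt1 to Dsg1b, Ptprs and Ppic to Dsg2, and Cuedc1 and Helz to Dsg3. Ly6g6c and Gltp were closest to Dsc1, Nfix and B230219D22Rik to Dsc2, and Tbrg1 and Aqp3 to Dsc3. Polr3g and Nfe2l1 followed Dsp, Mvk and Acly followed Pkp1, and Prom2 and Dbi followed Perp. These r ran from 0.973 for Dsc2 to 0.995 for Dsc3. Dsg1a correlated with Dsc1 at 0.93 and with Pkp1 at 0.93, and with Dsg3 at -0.63.

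HFD was compared with RD in each class by edgeR's quasi-likelihood test on UMIs summed per mouse, with p-values adjusted over all genes of the class. In males no desmosome gene passed in 49 tests, beside 0% of all genes called in each of the 5 classes. At an unadjusted p under 0.05 there were 3 desmosome gene tests and 803, 871, 716, 1285 and 2293 of all genes in basal, cycling, Krt9/Il34, spinous and terminal cells. Over the 5 classes 10.4% of all male gene tests had such a p. DESeq2 also called 0 desmosome genes in males and 259 genes in all over the 5 classes. In females 3 of 49 tests passed, all lower on HFD: Pkp1 in basal cells, where 0.945% of all genes passed, Pkp1 in cycling cells (1.84% of all genes) and Dsc1 in spinous cells (3.32% of all genes). No desmosome gene passed by edgeR in female Krt9/Il34 cells (1.79% of all genes), where Dsc1 had a log2 fold change of -0.35 and DESeq2 called it (adjusted p = 0.0396), as did edgeR without the count filter (adjusted p = 0.00867). None passed in female terminal cells, where 0% of genes passed by edgeR and 612 had an unadjusted p under 0.05. Such a p was found for 2, 3, 2, 4 and 2 desmosome genes in female basal, cycling, Krt9/Il34, spinous and terminal cells. Among all female gene tests 17.6% had it. Lower calls alone covered 0.437%, 0.901%, 0.895% and 1.56% of all genes in female basal, cycling, Krt9/Il34 and spinous cells.

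Pkp1 in female basal cells was 291, 267 and 274 CPM in the RD mice and 218, 229 and 215 CPM in the HFD mice. All HFD mice lay below all RD mice. The log2 fold change was -0.34 ± 0.063 (SE), with an adjusted p of 0.0428 by edgeR. In female cycling cells Pkp1 was 343, 347 and 342 CPM on RD and 286, 268 and 256 CPM on HFD, again without overlap, a log2 fold change of -0.38 ± 0.072 with an edgeR adjusted p of 0.0360. In males the basal values were 284, 283 and 301 CPM on RD and 245, 240 and 258 CPM on HFD, and the groups also did not overlap. The male log2 fold change of -0.17 ± 0.068 did not pass (edgeR adjusted p = 0.726), and neither did that of -0.16 in cycling cells (adjusted p = 0.718). The difference between the sexes was -0.14 in basal cells (edgeR adjusted p = 0.688) and -0.19 in cycling cells (adjusted p = 0.599), so a difference between the sexes in the Pkp1 response was not shown. The highest doublet scores marked 3.75% of female basal cells on RD and 4.06% on HFD, and 20.3% and 17.02% of female cycling cells.

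Dsc1 in female spinous cells was 350, 329 and 354 CPM on RD and 279, 274 and 271 CPM on HFD. The groups did not overlap, and the log2 fold change was -0.37 ± 0.061 with an edgeR adjusted p of 0.0218. In male spinous cells the values were 464, 526 and 392 CPM on RD and 457, 429 and 442 CPM on HFD, which overlapped (log2 -0.01, adjusted p = 0.986). The difference between the sexes, -0.36 ± 0.13, did not pass (edgeR adjusted p = 0.171). Within the clusters, female Dsc1 was lower on HFD in spinous I (-0.39, adjusted p = 0.0169 by edgeR) and had -0.32 in spinous II (adjusted p = 0.0663). In males the log2 fold change was -0.16 in spinous I and -0.03 in spinous II (edgeR adjusted p = 0.850 and 0.947), and the whole male class also held more spinous II cells on HFD, as given below. Spinous II made up 31.0%, 32.8% and 31.9% of female spinous cells on RD and 35.7%, 30.7% and 30.5% on HFD, which overlapped. Krt10 overlapped as well in female spinous cells, at 28847 to 30779 CPM on RD and 28911 to 31732 CPM on HFD. The highest doublet scores marked 6.78% of female spinous cells on RD and 6.63% on HFD.

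**Figure D4:**
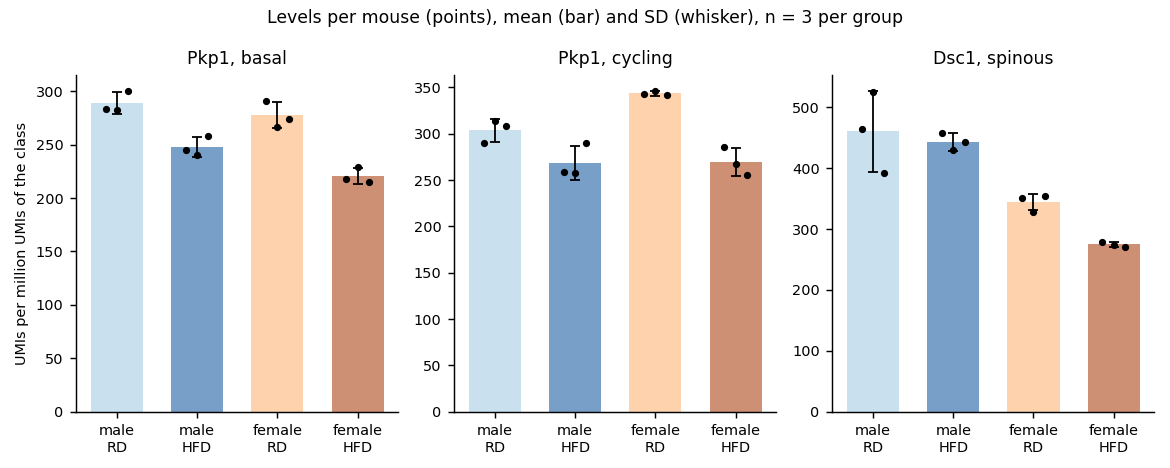
Pkp1 in basal and cycling cells and Dsc1 in spinous cells (CPM), with a point per mouse, a bar at the mean and a whisker for the SD of 3 mice in each sex and diet. In females all HFD points lie below all RD points in the 3 panels, and in males they do so for Pkp1 but not for Dsc1.

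These 3 calls rested on few mice. Leaving out any of the 3 female RD mice or female HFD mouse 3 left 0 calls. Without female HFD mouse 1 only Dsc1 passed, and without female HFD mouse 2 all 3 passed. The log2 fold changes stayed between -0.43 and -0.31 throughout, with adjusted p-values from 0.0274 to 0.209.

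Beyond the calls, more desmosome genes than these had no overlap between diets in female spinous cells. All HFD mice lay below all RD mice for 7 of 10 genes (Dsg1a, Dsg1b, Dsc1, Dsc3, Dsp, Perp and Pkp1), against 8.75% of all genes tested in that class (26.6% in either direction), and for no desmosome gene were they all above. Dsg1a was 1333, 1277 and 1311 CPM on RD and 1234, 1129 and 1198 CPM on HFD, and Dsp was 2261, 2241 and 2207 CPM against 2056, 1913 and 2041 CPM. The edgeR adjusted p-values of those 6 other genes did not reach the threshold (0.173 for Dsg1a and 0.130 for Dsp). In female Krt9/Il34 cells 5 of 10 genes lay lower without overlap (Dsc1, Dsc3, Dsp, Perp and Pkp1), against 9.43% of all genes (24% in either direction). Smaller numbers were found in female basal cells (3 of 10 against 10.5%, or 21.1% in either direction). Female cycling cells had 3 of 10 (against 9.51%, or 24.1%) and female terminal cells 1 of 9 (against 3.06%, or 10.8%). The genes of the list share mice and cells, so the count is a description.

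In male basal cells Dsc3, Perp and Pkp1 were lower without overlap (3 of 10, against 10.2% of all genes, or 13.1% in either direction). In male cycling cells Dsg1b, Dsc3, Perp and Pkp1 were so (4 of 10, against 7.56%, or 12.1%). Only Dsg2 was lower without overlap in Krt9/Il34 cells (1 of 10, against 10.2%, or 12.6% in either direction). Perp and Pkp1 were so in terminal cells (2 of 9, against 25.6%, or 28.8%). In male spinous cells Dsc3 was lower and Dsg1a higher without overlap (13.2% of all genes were lower, and 18.2% lay apart in either direction). Dsg1a had 1408, 1345 and 1381 CPM on HFD against 1270, 1210 and 1290 CPM on RD. Its log2 fold change of 0.18 had an edgeR adjusted p of 0.409. Spinous II held 27.02% to 27.9% of male spinous cells on RD and 32.4% to 34.4% on HFD, without overlap. Within the clusters the male Dsg1a log2 fold change was 0.08 in spinous I and 0.20 in spinous II (edgeR adjusted p = 0.893 and 0.467). That of male Dsc3 was 0.05 in spinous I and -0.09 in spinous II (edgeR adjusted p = 0.956 and 0.727). The part of the cluster shift in the Dsg1a and Dsc3 differences was not tested.

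The median log2 fold change of the desmosome genes was -0.06, -0.12, -0.03, 0.04 and 0.05 in male basal, cycling, Krt9/Il34, spinous and terminal cells. In females it was -0.10, -0.15, -0.12, -0.16 and -0.28. The median over all genes lay within 0.01 of 0 except in terminal cells, where it was -0.06 in males and 0.03 in females. In spinous and terminal cells the median thus had opposite signs in the sexes. That difference of medians was not tested. The diet by sex term of edgeR, which takes each gene on its own, called none of the 10 genes in any of the 5 classes (0 of 50 tests, 8 of them at an unadjusted p under 0.05), beside 0.0348%, 0.0352%, 0.0578%, 1.55% and 0% of all genes. Calls with a lower female response alone were 0.00695%, 0%, 0.00723%, 0.775% and 0%. Over the 5 classes 13.7% of all gene tests had an unadjusted p under 0.05. DESeq2 called 2 of these 50 tests, beside 2.04% of all gene tests. Nearest to the edgeR threshold were Dsg1a in spinous cells (-0.36 ± 0.097, adjusted p = 0.0717) and Dsc1 in terminal cells (-1.30 ± 0.27, adjusted p = 0.0784).

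**Figure D5:**
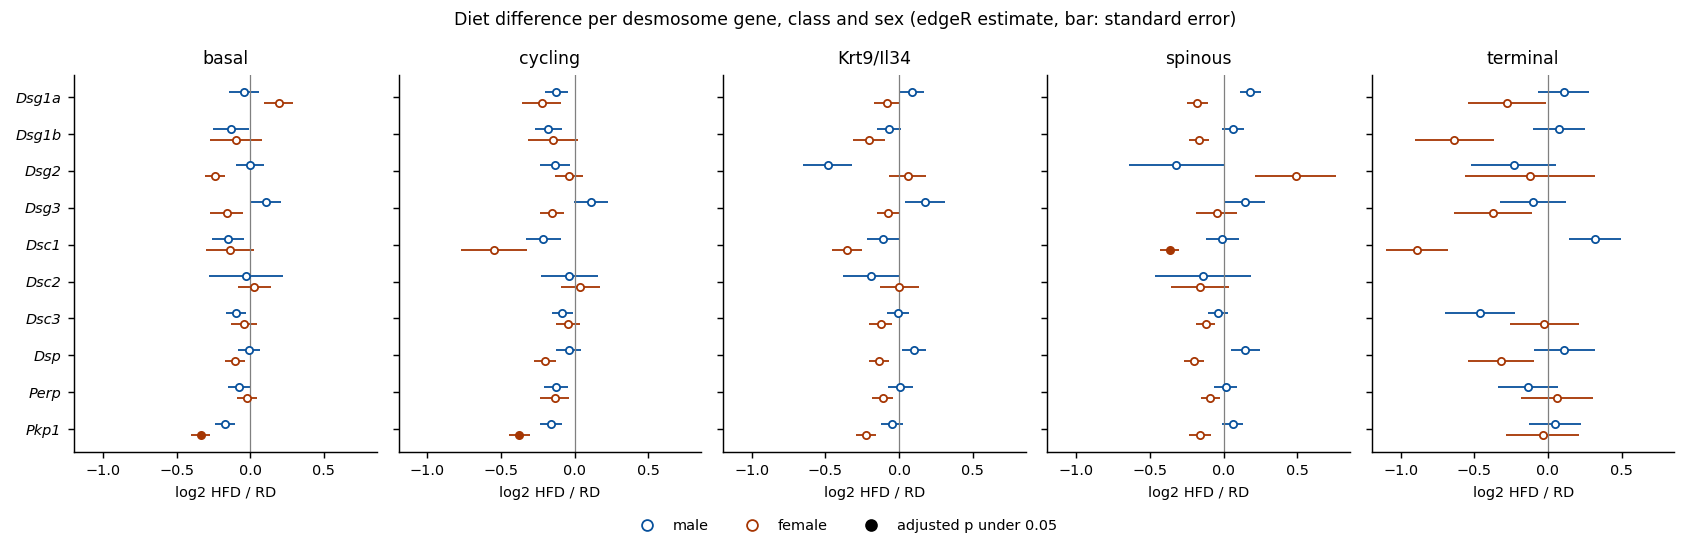
Log2 ratio of HFD to RD for each desmosome gene and class, with the edgeR estimate as a circle, its standard error as a bar, colour for sex, and filled circles for an adjusted p under 0.05. The filled circles are Pkp1 in female basal (-0.34) and cycling cells (-0.38) and Dsc1 in female spinous cells (-0.37).

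Isoform shares were compared between diets by exact permutation tests, which cannot go below p = 0.1 with 3 mice against 3. Of 20 comparisons 6 reached that smallest p and the smallest adjusted p was 0.333. The Dsc1 share of female spinous cells was 32.2 ± 0.888% on HFD and 36.0 ± 0.892% on RD, without overlap. Male spinous cells had 51.0 ± 0.633% and 50.3 ± 3.17%, which overlapped. In female terminal cells the Dsc1 share was 22.4 ± 4.82% on HFD and 33.9 ± 5.12% on RD, and in male terminal cells it was 76.5 ± 7.71% and 65.2 ± 5.18%. The highest doublet scores marked 24.1% of female terminal cells on HFD and 18.1% on RD, and 14.1% and 22.6% of male ones. Without those cells the share was 53.2 ± 20.2% on HFD and 62.6 ± 7.77% on RD in females and 89.5 ± 9.13% and 81.2 ± 6.097% in males, and the diets overlapped in both sexes. With the 10% mitochondrial limit it was 68.8 ± 4.54% on HFD and 73.3 ± 6.68% on RD in females, which overlapped, and 86.7 ± 2.42% and 80.4 ± 1.95% in males, which did not. The Dsg1 share of spinous cells was within 0.14 points between diets in both sexes.

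No gene of the list of 9 other junction genes passed in any class within males, within females or in the test between sexes by edgeR, although 18 of its 103 tests had a p under 0.05 before adjustment and 3 tests passed by DESeq2. Among all gene tests of the 15 comparisons 14.05% had such a p and 1.97% passed by DESeq2. Of the 14 regulators and proteases, Klk8, a kallikrein, was higher on HFD in female Krt9/Il34 cells (log2 0.33 ± 0.058, edgeR adjusted p = 0.0250). Grhl1 was lower on HFD in female spinous cells (-0.27 ± 0.059, edgeR adjusted p = 0.0424). The Trp63 response differed between sexes in spinous cells, by -0.41 ± 0.096 (edgeR adjusted p = 0.0489), though sex and counting software cannot be told apart there. The Trp63 response was 0.31 in males and -0.10 in females, neither of which passed on its own. These 3 were the edgeR calls among 209 tests of that list, beside 0.710% of all gene tests, and DESeq2 called 15 of them, beside the 1.97% above.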

How the data were processed

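The authors deposited raw UMI counts per gene and barcode from Chromium Single Cell 3′ v3.1 libraries (1 per mouse), counted with Cell Ranger on mm10 (GRCm38). Per the labels the version was 7.2.0 for all, with Seurat 5.0.0, but per the file headers it was 6.1.0 for males and 7.2.0 for females. Whether intron reads or strand entered the counts is not given in the sources used here. A cell was kept if it had between 200 (males) or 500 (females) and 6000 genes and no more than 5% of mitochondrial UMIs. Within each sex, 2000 variable genes without the desmosome genes, 10 principal components and 20 neighbours were clustered by Leiden (leidenalg 0.10.2, Python 3.11.15) at the lowest resolution giving at least 10 clusters. Clusters were named from marker lists by a rule set after the data were seen; the class planned as volar Krt9 was renamed Krt9/Il34 because its leading genes went against that name in females. Doublets were scored by simulation and kept, with an alternative that removed the highest scores (0.8% per 1000 cells).

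UMIs were summed per mouse and class and tested by edgeR 4.0.16 quasi-likelihood fits (TMM, filterByExpr, Benjamini-Hochberg at 0.05 over all genes) in R 4.3.3, with DESeq2 1.42.0 as an alternative; the code was tested on simulated data. p-values measure the spread between mice. Levels are CPM of the class, and intervals over mice include counting error. The genes and lists were chosen with earlier results of these data known. The genes named are the 10 members, list genes past the threshold (at most 5 per list and comparison) and the 2 most correlated genes per member; levels of other list genes were named after their values were seen. Promoters come from RefSeq (GRCm38.p6), positions from GENCODE M21, which held 99.6% of the 32285 genes. Alternatives were another count filter, DESeq2, a replicate block, each mouse left out, a 10% mitochondrial limit, a 2 times higher resolution, doublets removed and thinned sums; the spinous clusters apart, the isoform shares by diet under other settings and the difference of diet effects on shares between sexes were added after the data were seen.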

Additional observations from a re-analysis of the deposited data

Results flagged for a closer look

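The Dsg1 share of desmoglein UMIs in basal cells stood out because the diet groups differed in opposite directions in the 2 sexes. In male basal cells it was 44.3%, 44.3% and 46.2% on RD and 44.1%, 41.9% and 42.0% on HFD, a difference of -2.28 points with all HFD mice below all RD mice. In female basal cells it was 18.2%, 16.4% and 18.3% on RD and 19.7%, 20.6% and 22.4% on HFD, a difference of 3.26 points with all HFD mice above all RD mice. The female difference minus the male difference was 5.54 points. An exact two-sided permutation over 400 arrangements of diet within each sex gave p = 0.005, adjusted to 0.05 over 10 tests. It is the smallest p those arrangements allow, and groups that separate fully in opposite directions always give it, so it adds nothing to the separation itself. The highest doublet scores marked 7.17% of male basal cells on RD and 5.90% on HFD, and 3.75% and 4.06% of female ones. Without those cells the share was 39.5% on RD and 38.0% on HFD in males, which then overlapped, and 16.3% and 19.8% in females, which did not, and the difference between the sexes was 5.10 points. For the Dsc1 share of terminal cells the difference between the sexes was -22.9 points (permutation p = 0.015, adjusted p = 0.075 over 10 tests), which was -17.7 points without the cells of the highest doublet scores and -10.8 points with a 10% mitochondrial limit. Those scores marked 22.6% of male terminal cells on RD and 14.1% on HFD, and 18.1% and 24.1% of female ones. Dsg1a in basal cells averaged 122 and 58.6 CPM in males and females against 299 and 109 CPM in Langerhans cells, and without the highest doublet scores 102 and 54.1 CPM against 55.3 and 11.3 CPM.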

How the results depend on the processing

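Male calls among desmosome genes stayed at 0 under each alternative tried. Female calls were 3, with 5 without the count filter, 4 with DESeq2 (adding Dsc1 in Krt9/Il34 cells), 1 with a replicate block and 0 to 3 with 1 mouse left out. The diet by sex term gave 0 calls, 1 without the count filter (Dsc1 in terminal cells), 2 with DESeq2 (Dsg1a in spinous and Dsc1 in terminal cells) and 0 to 2 with 1 mouse left out. Those were 2 without male RD mouse 2 (Dsc1 and Dsp in spinous cells) and 1 without male RD mouse 3 or female RD mouse 2 (Dsc1 in terminal cells). Correlations between RD and HFD mice ran from -0.37 to 0.29 for equal replicate numbers and from -0.33 to 0.39 for different ones. These ranges do not show whether replicate numbers pair the mice. With the replicate block the edgeR adjusted p was 0.127 and 0.103 for Pkp1 in basal and cycling cells and 0.0452 for Dsc1. The Dsg1 share rose from basal to terminal cells by 51.1 points in males (50.7 to 51.6 with 1 mouse left out) and 64.0 in females (62.9 to 65.8), and the Dsc1 share by 66.9 (64.2 to 68.7) and 27.4 (25.4 to 29.4). With a 10% mitochondrial limit these 4 values were 58.7, 77.7, 80.3 and 70.4 points, and with the highest doublet scores removed 58.2, 71.2, 82.3 and 57.3. The male Dsg1 value was 56.4 at the higher resolution, and between the outer keratin bins it was 71.2, with 79.2 for the female Dsg1 and 48.5 for the male Dsc1 value. No share differed by diet past the threshold in any setting, which 3 mice against 3 do not allow. Calls over all genes and classes were 0 in males and 1434 without the count filter, 259 with DESeq2, 25 with the block, 3 with a 10% mitochondrial limit and 2 with thinned sums. In females they were 1094, with 3201, 2081 and 358 under the first 3 of these, and for the sex difference 236, with 2327, 1354 and 92 under those and 84 to 205 under the other 4. With 1 mouse left out they ran from 0 to 875, from 10 to 2575 and from 34 to 1248. The causes were not tested.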
